A study of Homo sapiens with 10 samples.

Results

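Subclone 5 of the human glioma line U87MG was compared with subclones 2 and 3, the 2 subclones whose arrays were most like its own. The members are the genes whose value in subclone 5 lay at least 1 log2 unit, a 2-fold difference, above or below both relatives on the same side. Genes whose highest value over all 10 subclones was under the median of the deposited table (5.00) were left out, which kept 7095 of 11880 genes. The rule found 31 members, 15 higher and 16 lower in subclone 5, or 0.437% of the genes that passed the filter. The members were chosen by these log2 values themselves, so the differences are given as descriptions without a test. Where 3 values follow each other below, they are for subclones 5, 2 and 3 in that order, unless others are named.

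All 10 subclones, numbered 1, 2, 3, 5, 6, 8, 9, 10, 11 and 12, grew from single cells of U87MG that had been plated sparsely. Each of the 3 subclones compared here is therefore 1 clone, measured on 1 array, and no treatment, genotype or time point sets them apart in the labels. They share the same serum-containing medium on plastic, harvest in exponential growth after trypsin, and 1-colour Affymetrix arrays hybridised with biotin-labelled RNA. Repeat cultures or arrays of the same subclone were not analysed here, so no difference below can be set against replicate error and no p-value is given. Values are log2 expression from RMA, which corrects background, aligns the arrays' distributions and summarises probes. The deposited arrays were still not fully level. Upper quartiles were 7.30, 7.31 and 7.32 in subclones 5, 2 and 3, but ran from 6.75 in subclone 10 to 7.36 in subclone 9. Places among all 10 subclones below carry these differences.

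Subclones grown from one tumour line share a genome of origin but can differ in chromosome copies, in silenced or reactivated genes and in how fast they divide. MHC class II molecules, which show peptides to helper T cells, are set largely by 1 co-activator, CIITA, and glioma cells can carry them. Cancer-testis antigens such as the MAGE proteins are normally made in male germ cells and silenced elsewhere, often by DNA methylation. Genes of mitosis are transcribed together shortly before cell division, so their level in a culture follows the share of cells that are about to divide.

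The 3 arrays were close. Over the 7095 genes Pearson's r was 0.987 between subclones 5 and 2, 0.983 between 5 and 3, and 0.984 between 2 and 3, while the other 42 pairs of subclones gave 0.893 to 0.980. The points of these correlations are genes of 1 array each and are not independent. A difference of at least 1 log2 unit was seen for 85 genes between subclones 5 and 2, 116 between 5 and 3, and 123 between 2 and 3, against 166 to 1885 in the other pairs. By the same rule subclone 3 stood outside 2 and 5 for 49 genes (18 higher, 31 lower) and subclone 2 outside 3 and 5 for 23 (12 higher, 11 lower). Array medians were 5.10, 5.10 and 5.11 in subclones 5, 2 and 3.

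**Figure D1:**
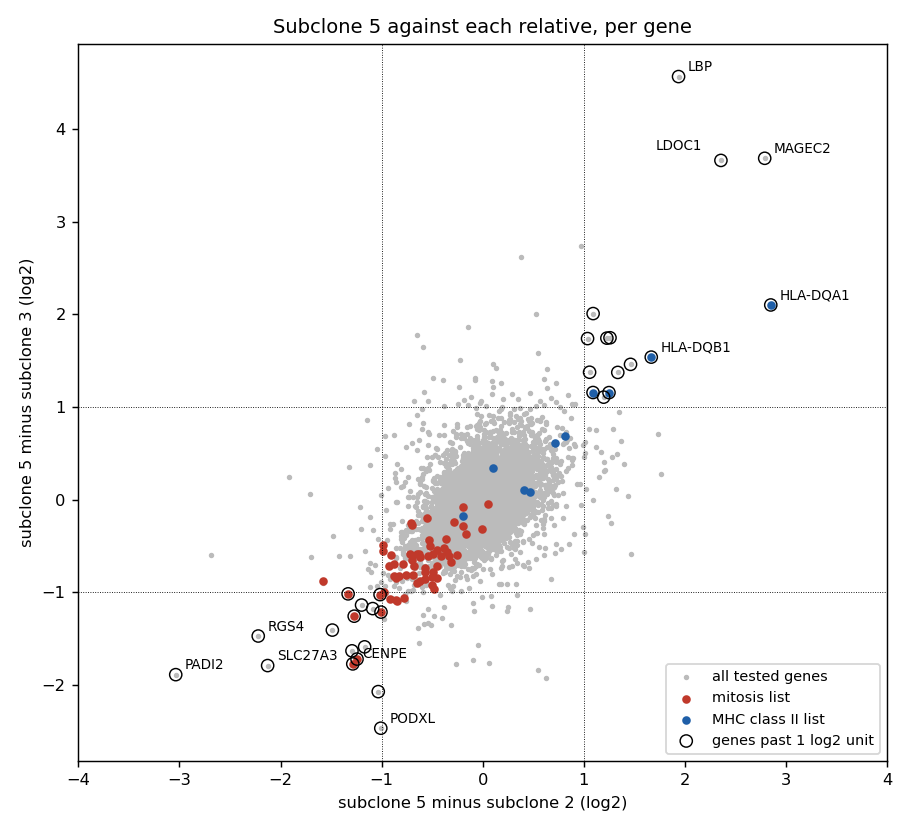
Each point is a gene: the x axis is subclone 5 minus subclone 2 and the y axis subclone 5 minus subclone 3, both in log2 units, with dotted lines at 1 and -1. The 31 circled members fill the upper right and lower left corners; genes of the mitosis list (red) lie almost all below 0 on both axes, and 4 genes of the MHC class II list (blue) are circled at the upper right.

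Of the genes higher in subclone 5, 4 belong to antigen presentation by MHC class II: HLA-DQA1 and HLA-DQB1, the chains of the HLA-DQ molecule, HLA-DMB, a chain of the catalyst that loads peptides, and CD74, the invariant chain that guards the groove. HLA-DQA1 was at 6.76, 3.91 and 4.66, so that of the 3 only subclone 5 lay above the table's median. That is 4.29-fold above subclone 3, the nearer relative. HLA-DQB1 was at 9.37, 7.71 and 7.84, which is 2.90-fold above the nearer. For HLA-DMB the values were 7.46, 6.21 and 6.31, and for CD74 they were 9.63, 8.54 and 8.47. In these last 3 genes the relatives lay within 0.13 log2 units of each other.

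Other chains of the class were higher by less than 1 log2 unit or did not pass the filter. HLA-DRB4, an HLA-DR chain that did not pass, was at 4.14, between the relatives' 4.10 and 4.20. HLA-DPA1, a chain of HLA-DP, was at 10.31 against 9.60 and 9.70. HLA-DMA, the partner of HLA-DMB, was at 9.33 against 8.52 and 8.64 and was highest of all 10 subclones in subclone 5. Of the 10 class II genes that passed the filter, 9 lay above both relatives by any amount and 1 below, with a median difference of 0.71 from their mean. Without the filter, over all 14 genes of the list that were measured, the median was 0.27. Over all 7095 genes 31.6% lay above both and 32.4% below, with a median difference of 0.00. Past 1 log2 unit were 4 of the 10, against 0.211% of all genes on the higher side. The rule chose on these same values, so the counts describe the list and lend it no support.

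The regulators of the class differed little. CIITA, the co-activator, did not pass the filter and was at 3.92, 3.80 and 3.70, below the table's median. RFX5, which binds class II promoters, was at 7.35, 6.94 and 7.24, and its partner RFXANK at 7.28, 7.18 and 6.94. RFXAP, the third part of that complex, was at 4.12, 4.31 and 4.30 and was the 1 gene of the list below both relatives. HLA-DQB2, a close copy of HLA-DQB1, was at 3.68, 3.32 and 3.37. The files do not show which probes stand behind a value, so signal from alleles or near copies of an HLA gene cannot be told apart from the gene itself.

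Among the other 7 subclones, subclones 1 and 6 were also high. HLA-DQA1 reached 7.83 and 6.77 there and ranged from 3.63 to 4.77 over the remaining 5. HLA-DQB1 was at 9.52 and 8.91 in subclones 1 and 6, and CD74 at 9.71 and 8.99. For all 4 genes subclone 1 was highest of the 10 and subclone 9 lowest, so subclone 5 lay inside the range of the others. The median of the list's gene-centred values (a gene's log2 value minus its mean over 10 subclones) was 0.80 for subclone 5, 0.96 for subclone 1 and 0.50 for subclone 6, whereas the relatives stood at -0.19 and -0.12.

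MHC class I genes, which show peptides to killer T cells, differed by far less. Of 18 genes 13 lay above both relatives and 0 below, beside 31.6% and 32.4% of all genes. None was so by 1 log2 unit, and the median difference was 0.13. The largest was PSMB10, a subunit of the immunoproteasome, at 8.19, 7.82 and 7.66. In chromosomal order HLA-DQA1 and HLA-DQB1 were neighbours among the measured genes, and PSMB8, TAP1 and PSMB9 lay between HLA-DQB1 and HLA-DMB. Those 3 genes were above the nearer relative by 0.18, 0.03 and 0.22, so a short stretch of chromosome 6 held both large and small differences.

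The promoters of the 4 class II members are shown because the genes were higher together although CD74 lies on another chromosome. Each line gives the 150 bases before the gene's start, from RefSeq on GRCh38.p14, read 5′ to 3′ on the gene's own strand. Capitals mark CCAAT on either strand (ATTGG when reversed), the core of the Y box, and CNAGNNAC on either strand, letters written down after reading these 4 windows and close to the X box, where RFX binds. The windows are chr6:32637256-32637405 (+ strand) for HLA-DQA1, chr6:32666658-32666807 (- strand) for HLA-DQB1, chr6:32941029-32941178 (- strand) for HLA-DMB and chr5:150412911-150413060 (- strand) for CD74.
HLA-DQA1: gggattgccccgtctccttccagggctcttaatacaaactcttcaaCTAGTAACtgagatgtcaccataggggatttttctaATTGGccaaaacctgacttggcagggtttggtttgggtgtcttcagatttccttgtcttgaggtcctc
HLA-DQB1: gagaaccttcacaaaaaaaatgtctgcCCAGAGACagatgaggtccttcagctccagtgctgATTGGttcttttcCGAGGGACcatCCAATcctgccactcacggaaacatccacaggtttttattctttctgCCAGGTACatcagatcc
HLA-DMB: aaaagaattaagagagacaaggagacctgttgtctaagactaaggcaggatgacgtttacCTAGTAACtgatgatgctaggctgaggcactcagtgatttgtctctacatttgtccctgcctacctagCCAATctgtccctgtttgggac
CD74: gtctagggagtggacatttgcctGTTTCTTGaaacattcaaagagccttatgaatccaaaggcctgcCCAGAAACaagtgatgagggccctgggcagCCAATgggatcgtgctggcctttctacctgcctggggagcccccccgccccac

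All 4 promoters held CCAAT within 250 bases before the start, as did 32.0% of 35116 RefSeq promoters. That all 4 also held CNAGNNAC was fixed by how those letters were written down, and nothing is read from it. CNAGNNAC was in 33.2% of all promoters. A match describes the letters only and does not show binding. HLA-DQA1 and HLA-DMB carried the same 8 letters, CTAGTAAC, beginning at positions -104 and -90, and CCAAT nearest the start at -68 and -22, counted back from the gene's start. In CD74 the CNAGNNAC nearest the start began at -83 and CCAAT at -53.

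The largest distance of all belonged to MAGEC2, a cancer-testis antigen on the X chromosome. It was at 7.65, 4.86 and 3.97, or 6.90-fold above the nearer. Among the other 7 subclones subclones 9, 10 and 12 read 7.36, 7.86 and 7.38, while 1, 6, 8 and 11 stayed between 4.02 and 4.58. Values between 4.86 and 7.36 were not seen, so the 10 subclones fell into 4 high and 6 low, with subclone 5 among the high.

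Its near neighbours on the X chromosome were not high in subclone 5: MAGEC1 was at 3.39 and MAGEC3 at 3.62. MAGEC1 was high in subclone 9 alone, at 7.94. Of 27 cancer-testis genes measured, 8 passed the filter, and MAGEC2 alone of these lay past 1 log2 unit. SSX1 was at 4.29, 3.87 and 3.93, and IL13RA2, an interleukin receptor, at 10.14, 9.90 and 11.35.

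LDOC1, a leucine zipper gene that is often silenced in tumours, lies close to MAGEC2, with 3 measured genes between them. It was at 8.12, 5.77 and 4.46, a 5.12-fold distance from the nearer. Subclones 1, 9, 10 and 11 were at 7.95, 8.30, 7.74 and 8.11, subclone 6 at 6.79, and subclones 8 and 12 at 4.30 and 5.79. Here subclone 5 stood with the majority, and subclones 2, 3, 8 and 12 were low. Of those 4, subclones 2, 3 and 8 were also low in MAGEC2, and subclone 12 was high in it.

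LBP, a secreted protein that carries bacterial lipopolysaccharide to its receptor, was higher in subclone 5 than in any other subclone. The values were 10.49, 8.55 and 5.92. The 2 relatives differed from each other by 2.63, more than the 1.94 that separated subclone 5 from the nearer. Elsewhere LBP was at 9.94 in subclone 1, 8.89 in subclone 12 and between 4.17 and 5.71 in the other 5. No subclone lay between 5.92 and 8.55, so 4 were high and 6 low, with the relatives on opposite sides.

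Partners of LBP differed little. The receptor parts CD14 and TLR4 did not pass the filter and stood at 3.64 and 3.24 in subclone 5. LY96, the co-receptor MD-2, was at 9.20, 8.72 and 8.33 and was highest of all 10 in subclone 5. The liver acute phase genes CRP, HP and FGB did not pass the filter, and their values in subclone 5 were 3.30, 4.08 and 3.41. Of 13 genes of this list 5 were above both relatives and 4 below, beside 31.6% and 32.4% of all genes. LBP alone was past 1 log2 unit.

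Among the other higher genes, 4 were below the table's median in all of the other 7 subclones. SLC2A10, a sugar transporter of the GLUT family, was at 5.56, 4.22 and 4.19 and reached no more than 3.91 in the other 7. SOBP, a nuclear zinc finger gene, was at 5.77, 4.52 and 4.03 and at most 3.86 in the other 7. S1PR1, a receptor for sphingosine 1-phosphate, was at 6.14, 5.05 and 4.13 with at most 4.14 elsewhere. GHR, the growth hormone receptor, completed this set at 5.26, 4.22 and 3.52, with at most 3.56 elsewhere. For SLC2A10, SOBP and GHR, subclone 5 was the 1 array at or above the table's median, and they passed the filter through it alone. In all 4 genes subclone 2 came second.

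TBX3, a T-box transcription factor, was also highest in subclone 5, at 7.93 against 6.71 and 6.19, with 7.78 and 7.49 in subclones 9 and 12. CSTA, an inhibitor of cysteine cathepsins, was at 5.14 in subclone 5 and 3.68 in both relatives, while subclones 6, 11 and 12 were at 5.78, 5.88 and 5.08. LRRC32, which holds latent TGF-beta at the cell surface, was at 7.28 against 6.22 and 5.90, and subclones 1 and 12 were at 7.77 and 7.35. For these last 2 genes subclone 5 lay inside the range of the other 7.

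PLAU, the protease urokinase that activates plasminogen, was at 9.76, 8.56 and 8.65, or 2.15-fold above the nearer. Subclone 9 was higher still at 11.36, and the other 6 ranged from 7.73 to 9.34. Its receptor PLAUR was at 9.12, 8.94 and 9.02. Of 28 matrix proteases and inhibitors 16 lay above both relatives and 8 below, beside 31.6% and 32.4% of all genes. PLAU alone was past 1 log2 unit.

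**Figure D2:**
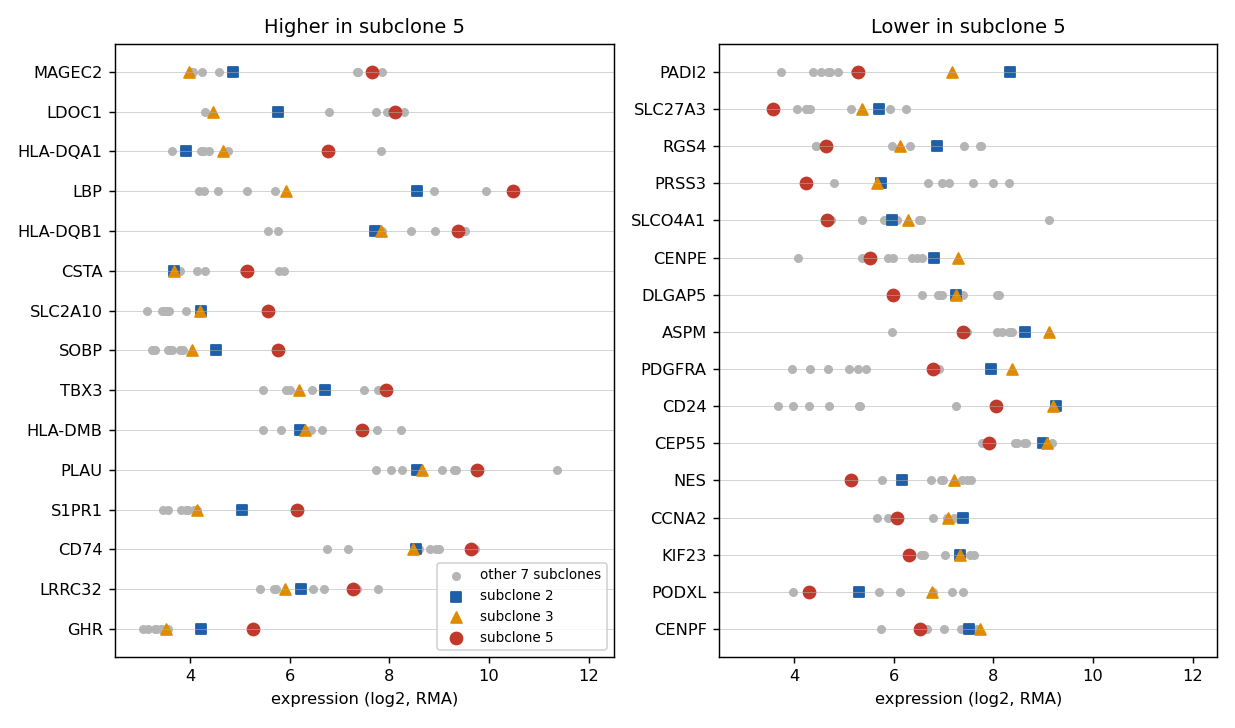
Log2 expression (x axis) of the 15 genes higher (left) and the 16 lower (right) in subclone 5, ordered by distance from the nearer relative; red circles are subclone 5, blue squares subclone 2, orange triangles subclone 3 and grey points the other 7 subclones. For SLC2A10, SOBP, S1PR1 and GHR the red circle stands alone at the right, and for PADI2 the red circle lies beside the grey points while subclones 2 and 3 stand apart.

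Genes of mitosis were the most numerous group among those lower in subclone 5, though not the farthest. CENPE, a motor of the kinetochore, was at 5.53, 6.81 and 7.30. DLGAP5, a spindle protein, was at 5.99 against 7.26 and 7.25, and ASPM, a spindle pole protein, at 7.40 against 8.64 and 9.12. The distances from the nearer relative were 2.44-fold, 2.39-fold and 2.37-fold. CCNA2, which encodes cyclin A2, was at 6.07 against 7.40 and 7.09. KIF23, a motor of the central spindle, was at 6.31 against 7.33 and 7.34, and CENPF, a kinetochore protein, at 6.52 against 7.52 and 7.73. CEP55, which acts in the final cut between daughter cells and was not on the list, was at 7.91 against 8.99 and 9.08.

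The whole class lay on the same side. Of 61 mitosis genes that passed the filter, 60 were lower in subclone 5 than in both relatives and 0 higher than both, with a median difference of -0.68 from their mean. Against these, 32.4% of all genes were below both. The exception, FZR1, an activator of the anaphase-promoting complex, was at 4.59, between 4.54 and 4.64. By at least 0.5 log2 units 36 of 61 were lower, against 2.20% of all genes (1.31% were higher by as much), and by at least 1 log2 unit 6, against 0.226%. CDC20, the other activator of that complex, was no member: it was at 8.46, 9.32 and 9.54, and between 9.02 and 10.17 elsewhere. The rule chose on these same values, and the list was written with earlier results of these data known. The counts therefore describe the list and lend it no support. In these bulk cultures fewer dividing cells and less RNA per cell cannot be told apart.

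Subclone 5 was the lowest of all 10 subclones for 22 of the 61 genes, against 457 of all 7095, among them CDC20, CCNB1, CCNB2, AURKA and PTTG1. CCNB1, a cyclin that drives entry into mitosis, was at 8.60, 9.36 and 9.41 and between 8.94 and 9.93 elsewhere. PTTG1, securin, was at 10.46 against 11.15 and 11.11 and between 11.10 and 11.49 elsewhere. MKI67, the proliferation marker, was at 6.34 against 7.20 and 7.19 but was lowest in subclone 10. Subclone 11 was lowest for 26 of the 61, so low mitotic expression was not particular to subclone 5. The median gene-centred value was -0.46 for subclone 5 and -0.55 for subclone 11, whereas the relatives stood at 0.18 and 0.29. Over all genes the same median was 0.05 in subclone 5. For the mitosis list it was -0.19 in subclone 8 and -0.22 in subclone 10, beside -0.01 and -0.29 over all genes.

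Genes of DNA replication, made somewhat earlier in the cell cycle, went the same way by less. Of 51 genes 41 were below both relatives and 2 above, beside 32.4% and 31.6% of all genes. None was so by 1 log2 unit, and the median difference was -0.35. MCM10, which starts replication forks, differed most, at 4.81, 5.38 and 5.70. POLD1, a DNA polymerase, was at 5.32 against 5.94 and 6.11 and was lowest of the 10 in subclone 5. PCNA, the sliding clamp, was at 9.29 against 9.56 and 9.70. The 2 genes above both, ORC2L and ORC4L of the origin recognition complex, were so by 0.09 and 0.03.

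CDK inhibitors, cyclins and p53 targets lay mostly level or slightly higher. Of 29 genes 12 were above both relatives and 3 below, beside 31.6% and 32.4% of all genes. None was so by 1 log2 unit, and the median difference was 0.13. CDKN1A, the inhibitor p21, was at 8.42, between the relatives' 7.78 and 8.51. CCND1, cyclin D1, was at 8.40 in subclones 5 and 2 and 9.45 in subclone 3. CCNG2, an atypical cyclin, had the largest difference of the list from the relatives' mean. It was at 5.46 against 6.58 and 5.65, so subclone 2 was the one apart.

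**Figure D3:**
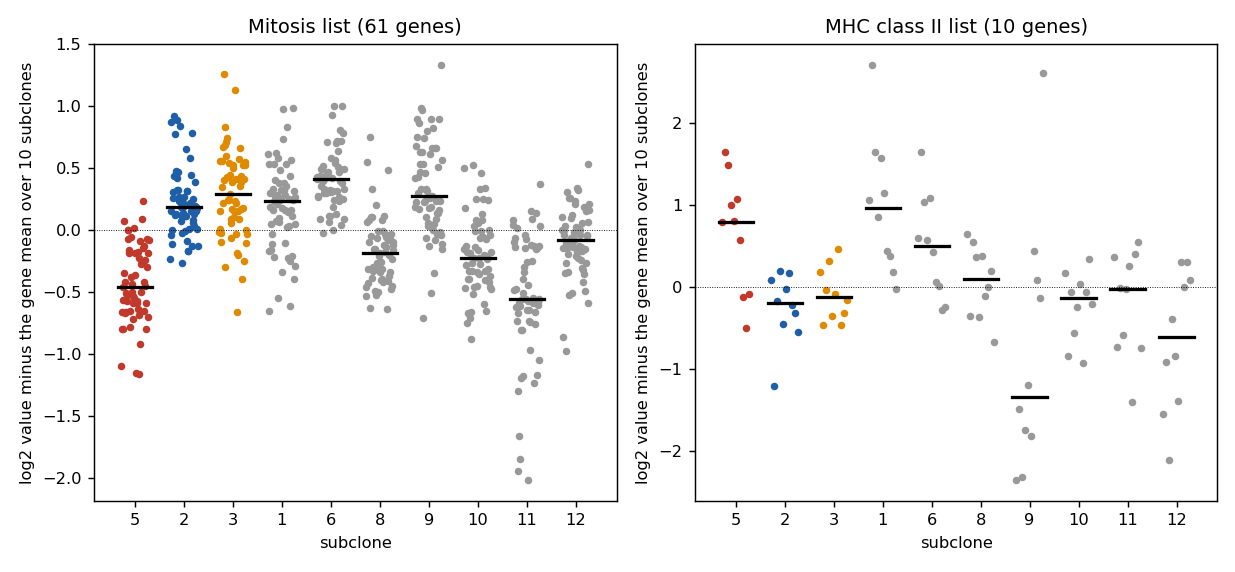
Each point is a gene of the mitosis list (left, 61 genes) or the MHC class II list (right, 10 genes), plotted as its log2 value minus its mean over the 10 subclones; columns are subclones and black bars medians. In the left panel subclones 5 and 11 have the lowest medians (-0.46 and -0.55), and in the right panel subclones 1 and 5 the highest (0.96 and 0.80).

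The promoters of 4 mitotic members are shown because genes of this class share the CHR element, searched here in the spellings TTTGAA, then CTTGAA and also TTTAAA, and the box CCAAT. Capitals mark these letters on either strand in the 150 bases before the start, again from RefSeq on GRCh38.p14. The windows are chr4:121823884-121824033 (- strand) for CCNA2, chr15:69414199-69414348 (+ strand) for KIF23, chr14:55191586-55191735 (- strand) for DLGAP5 and chr1:197146670-197146819 (- strand) for ASPM.
CCNA2: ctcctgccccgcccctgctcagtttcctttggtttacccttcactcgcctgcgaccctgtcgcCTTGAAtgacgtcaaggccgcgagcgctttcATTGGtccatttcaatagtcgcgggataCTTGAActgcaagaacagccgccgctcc
KIF23: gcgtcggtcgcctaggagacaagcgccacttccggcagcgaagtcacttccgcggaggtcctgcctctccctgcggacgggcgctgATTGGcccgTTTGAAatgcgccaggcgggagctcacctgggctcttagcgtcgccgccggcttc
DLGAP5: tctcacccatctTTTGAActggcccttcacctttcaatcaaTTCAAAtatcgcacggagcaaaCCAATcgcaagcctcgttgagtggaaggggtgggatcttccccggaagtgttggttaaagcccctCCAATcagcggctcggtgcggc
ASPM: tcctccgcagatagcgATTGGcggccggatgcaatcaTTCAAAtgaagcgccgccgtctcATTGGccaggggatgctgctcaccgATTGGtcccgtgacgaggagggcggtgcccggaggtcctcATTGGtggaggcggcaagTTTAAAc

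All 7 mitotic members (these 4, CENPE, CENPF and CEP55) held at least 1 of the 3 CHR spellings within 250 bases before the start. At least 1 spelling was in 28.2% of all 35116 promoters and in 20.7% of those of genes that passed the filter. A member was counted if any of its promoters matched, whereas these shares count single promoters. A CCAAT was also present in 6 of the 7 members, all but CENPE, and both kinds of letters together were in 9.9% of all promoters. KIF23 carried CCAAT at position -64 and TTTGAA at -55. In CCNA2 CTTGAA nearest the start began at -28 and CCAAT at -56, and ASPM held 4 copies of CCAAT. Among promoters of genes that passed the filter, 7.6% held both.

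PADI2, an enzyme that turns arginine in proteins into citrulline, had the largest distance on the lower side. It was at 5.29, 8.33 and 7.18, or 3.71-fold below the nearer. In the other 7 subclones it was between 3.73 and 5.23. Subclone 5 thus lay beside the other 7, and subclones 2 and 3 were the ones apart.

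PDGFRA, a receptor for platelet-derived growth factor that marks many gliomas, showed a graded pattern. It was at 6.79, 7.96 and 8.38, then 6.92 in subclone 8 and 3.96 to 5.45 in the other 6. PDGFRB, its sister receptor, was higher in subclone 5, at 7.58, than in subclone 2, the nearer relative, at 7.18. CD24, a surface glycoprotein, was at 8.06 against 9.26 and 9.20, with 7.26 in subclone 8 and 3.68 to 5.33 in the other 6. In both genes subclones 2, 3, 5 and 8 were above the other 6 and subclone 5 was below its relatives. Processed copies of CD24 exist in the genome, and the files do not show which of them its probes can bind.

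NES, which encodes the stem cell filament nestin, was lowest of all 10 subclones in subclone 5. It was at 5.14, 6.17 and 7.21 and between 5.77 and 7.55 in the other 7. The relatives differed by 1.04, about as much as the distance of 1.03. SOX9, another gene of the glioma and stem cell list, was at 5.13 against 5.77 and 6.51. SOX2 and OLIG2 did not pass the filter, and GFAP, the filament that defines astrocytes, was at 3.36, 3.43 and 3.60, below the table's median in all.

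SLC27A3, an acyl-CoA synthetase of the fatty acid transport family, was at 3.58, 5.71 and 5.37, and no other subclone was below 4.06. PRSS3, a trypsinogen, was at 4.25 against 5.74 and 5.66, with 4.81 to 8.32 elsewhere. SLCO4A1, an organic anion transporter, was at 4.66 against 5.96 and 6.29, with 4.75 to 9.12 elsewhere. Subclone 5 was lowest of the 10 for each of these 3 genes, and it lay below the table's median. PRSS3 has near copies among the trypsinogens, which the probes may not separate.

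RGS4, which switches off G protein signals, was at 4.65 against 6.87 and 6.12. Subclones 9 and 10 were lower, at 4.44 and 4.45, and the other 5 lay between 5.97 and 7.75. PODXL, a sialomucin of the cell surface, was at 4.31 against 5.31 and 6.77, with 3.99 in subclone 11 and up to 7.40 in subclone 6. The gap of 1.46 between the 2 relatives for PODXL was larger than the distance of 1.01 from subclone 5.

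The members' places among all 10 subclones were of several kinds. Subclone 5 was above all other 9 for 6 genes (LBP, SLC2A10, SOBP, TBX3, S1PR1, GHR) and below all other 9 for 6 (SLC27A3, PRSS3, SLCO4A1, DLGAP5, NES, KIF23). Of all 7095 genes it was highest for 760 and lowest for 457. The rule already sets subclone 5 outside both relatives, and SLC2A10, SOBP and GHR passed the filter through it alone. The counts are thus partly fixed by the choice and lend the members no support. For 5 further genes subclones 2 and 3 were both outside the range of the other 7 subclones. These were PADI2 and CD24, where subclone 5 was also above that range, and CENPE, ASPM and PDGFRA, where it was inside it. Both relatives were also above the other 7 for SLC2A10 (4.22 and 4.19) and SOBP (4.52 and 4.03), already counted among the first 6. The remaining 14 members had subclone 5 inside the range of the other 7. Of the 15 higher genes 8 in subclone 1 and 0 in subclone 8 lay on subclone 5's side of the midpoint between it and its nearer relative. Of the 16 lower genes 12 in subclone 11 were so, but 4 in subclone 6.

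At the edge of the rule, GHR, LRRC32 and CD74 were just inside on the higher side, at distances of 1.04, 1.06 and 1.09. EFEMP1, a fibulin of the matrix, GUSBP3 and PION were just outside at 0.98, 0.94 and 0.91. On the lower side CENPF, PODXL and KIF23 were inside at -1.01, -1.01 and -1.02, and CDCA8, EFNB2 and ABCA3 outside at -0.98, -0.98 and -0.96. EFEMP1 was at 8.65, 7.68 and 5.92.

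Several members lay in stretches of chromosome where neighbouring genes differed the same way. On chromosome 1 444 of 738 genes that passed the filter were below both relatives and 107 above, against 32.4% and 31.6% of all genes. The 288 genes from PRPF3 to ZNF692, the distal part in gene order, held 231 of the 444. There 80.2% were below both and 5.6% above, with a median difference of -0.26. In the 450 genes before that part, 47.3% were below both and 20.2% above, with a median difference of -0.08. SLC27A3, NES, RGS4, ASPM and CENPF lie in the distal stretch, and each differed by more than 1 log2 unit. The gene-centred median over the distal stretch was -0.16 for subclone 5, and 0.09 and 0.11 for its relatives. Subclones 10 and 11 were lower, at -0.27 and -0.43. Over all genes the same median was -0.29 in subclone 10 and -0.08 in subclone 11.

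Chromosome 4 was also divided. The bounds of the stretches on chromosomes 1 and 4 were set after the values were seen, so they carry no test. The 100 genes from SCARB2 to SC4MOL were below both relatives in 72 cases and above in 9, with a median difference of -0.33. CENPE and CCNA2 lie there. The gene-centred median of the stretch was 0.37, 0.35 and 0.32 in subclones 2, 3 and 8, 0.02 in subclone 5 and at most 0.05 in the other 6. Over the 100 genes before it, from PIGG to NUP54 and including PDGFRA, subclone 5 stood at 0.49 with subclone 2 at 0.51 and subclone 3 at 0.25. At the far end, 7 of the 8 genes from C4orf41 to FAT1 were above both relatives, with a median difference of 0.63. IRF2, a regulator of interferon genes in that group, was at 5.30 against 4.64 and 4.71.

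On chromosomes 8 and 20 more genes were above both relatives than below. On chromosome 8 116 of 257 genes were above both relatives and 26 below, yet no member lies there. The gene-centred medians were 0.12 in subclones 5 and 2 and -0.20 in subclone 3, so subclone 3 was the one apart. On chromosome 20 105 of 206 genes were above and 42 below; LBP and SLC2A10 lie there among the higher and SLCO4A1 among the lower members. The 4 genes on either side of LBP in gene order differed by at most 0.34 from the nearer relative.

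**Figure D4:**
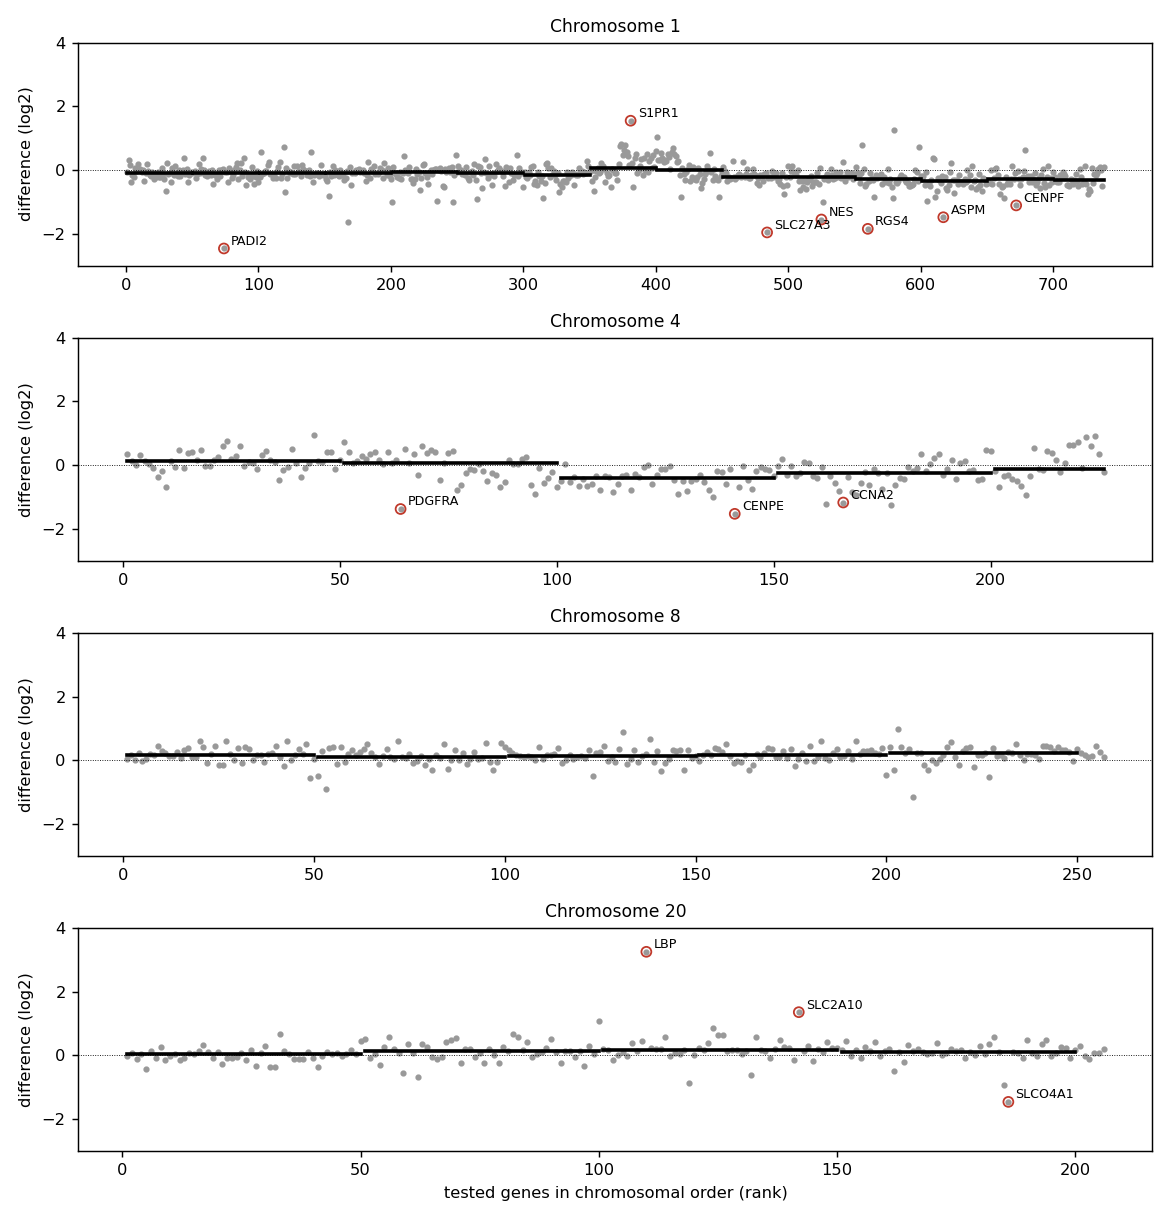
Difference of subclone 5 from the mean of subclones 2 and 3 (y axis, log2) for each gene that passed the filter, in chromosomal order (x axis, rank) on chromosomes 1, 4, 8 and 20; red circles are members and black bars medians of consecutive windows of 50 genes. The distal windows of chromosome 1 lie between -0.21 and -0.34, and the third window of chromosome 4 at -0.40.

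The mitotic genes were also lower on the other chromosomes. Of the 61 genes 8 lie on chromosome 1, with a median difference of -0.98. Without the genes of chromosomes 1 and 4, 48 of 49 were below both relatives, with a median difference of -0.65, and 2 were past 1 log2 unit. For DNA replication the same step left 39 of 47 below both and a median of -0.35. Over the 5668 genes on chromosomes other than 1, 4, 8 and 20, 32.6% were above both relatives and 29.6% below.

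Other gene groups held few or no members. Of the 29 lists 9 held at least 1. TGF-beta, BMP and ID genes had 10 of 20 above both relatives and 3 below, against 31.6% and 32.4% of all genes. Of the 20, 8 were highest of the 10 subclones in subclone 5, against 760 of all 7095, among them FST, a binder of activins (6.90 against 6.11 and 6.31), and ID3, an inhibitor of differentiation factors (10.35 against 9.81 and 9.73). Of 25 interferon response genes 14 were above and 5 below. MX2, an antiviral GTPase, was at 6.62 against 5.23 and 6.23, and IFITM1, a membrane antiviral protein, at 5.72 against 5.11 and 5.09. These differences were all under 1 log2 unit from the nearer relative.

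In the cytokine and NF-kB list 15 of 24 were above both relatives and 4 below, beside 31.6% and 32.4% of all genes. LIF, a cytokine of the IL-6 family, was at 4.82 against 3.77 and 4.06. Of 40 hypoxia and glycolysis genes 14 were above and 5 below; STC2, a stress-induced secreted glycoprotein, was at 9.44 against 8.96 and 8.63. Of 30 fibrillar matrix genes 4 were above and 15 below, and of 26 growth factor genes 5 and 12. The median differences of these 4 lists were 0.17, 0.12, -0.12 and -0.14. MT1M, a metallothionein, was at 8.18 against 7.80 and 5.56, and DKK1, a WNT inhibitor, at 6.93 against 7.20 and 8.70, so subclone 3 was the one apart in both.

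Further lists without a member are given beside 31.6% above both and 32.4% below over all genes. They were basement membrane and integrin genes (6 above, 8 below, of 22), integrated stress response genes (9 and 14 of 31), cholesterol and fatty acid synthesis (8 and 11 of 29), AP-1 and immediate early genes (4 and 8 of 23), WNT and Notch (5 and 3 of 15), complement (5 and 4 of 13) and metallothioneins (4 and 1 of 8). In each of these the share past 1 log2 unit was 0. LAMA5, a laminin chain, was at 5.80 against 6.81 and 6.69. FDPS, of the cholesterol pathway, was at 7.12 against 7.80 and 7.68 and lies on chromosome 1. SPRY4, a brake on growth factor signals, was at 4.93 against 4.86 and 6.69, and C1R, a complement protease, at 9.45 against 9.25 and 8.36. Of 16 adhesion genes, the list that holds CD24, 1 was above both and 10 below.

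Markers of other cell types were mostly below the table's median. Of 11 macrophage and microglia genes 10 were under the table's median on all 10 arrays, as were 8 of 9 oligodendrocyte and 8 of 9 endothelial genes. The mean over the macrophage list was 3.78 in subclone 5, 3.81 and 3.85 in subclones 2 and 3, and 3.82 to 4.19 elsewhere. Neuron markers averaged 4.72, 4.80 and 4.61. Astrocyte markers averaged 5.96, 5.81 and 5.83, with 6 of 10 under the median on all arrays. Fibroblast and smooth muscle markers, which mesenchymal glioma lines also express, averaged 6.97 in subclone 2 and 7.06 in subclone 3, with subclone 5 between them, and 5.37 to 6.52 elsewhere. CSF1R of the macrophage list was at 4.97 against 4.93 and 5.13, CNP of the oligodendrocyte list at 8.47 against 8.37 and 8.63, and ENG, an endothelial receptor, at 5.13 against 4.57 and 4.41. Of the 4 neuron markers that passed the filter 3 were above both relatives and 1 below, beside 31.6% and 32.4% of all genes. The 1 below was GAP43, a growth cone protein, at 5.11 against 6.09 and 5.90. SNAP25, among those above, was at 8.08 against 7.43 and 7.40. GLUL, glutamine synthetase, was at 7.06 against 5.62 and 7.01.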

How the data were processed

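The deposited log2 expression values, 1 per gene symbol and array, came from RMA according to the submitters' processing notes; that they are log2 follows from RMA's usual output and their range (2.73 to 13.70). No software version, probe annotation or genome build was given in the sources used here. Precision is limited by the number of arrays. Symbols were matched to RefSeq GRCh38.p14 for names, chromosomes and gene order: 10616 were current, 1082 older names and 182 unmatched. Promoters were found for 25 of 31 members.

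With 1 array per subclone no test was made; differences, counts and medians were computed in Python 3.11.15 with pandas 2.3.3, and the member rule was tested on simulated data. The 29 gene lists hold 965 entries, 110 of them not matched to the table. Named genes were the 12 farthest on each side, up to 5 members per list or the gene with the largest difference, the 5 label genes, members of chromosomes rich in them, and those nearest the threshold; further genes of the lists and RFX, HLA-DQB2 and IRF2 were named after their values were seen. Members and lists were chosen with earlier results of these data known. Results that need certain withheld genes are not reported here.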

Additional observations from a re-analysis of the deposited data

How the results depend on the processing

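Each subclone is 1 array, so every difference here may include the culture and the array, and no setting can separate them. Counts of higher and lower genes were 15 and 16; they were 15 and 14 with arrays centred, 15 and 16 after quantile normalization (14 and 14 of the same genes), 10 and 15 with a filter on the mean, and 16 and 16 without a filter. A threshold of 0.8 gave 22 and 42, and 1.5 gave 5 and 2. Against 1 relative alone, 42 to 62 genes were higher and 43 to 54 lower. Members in a fixed list numbered 16, but 26 at 0.8, 4 at 1.5 and 28 to 38 against 1 relative. Members outermost of the 10 subclones numbered 12, but 23 at 0.8, 2 at 1.5, 7 with the filter on the mean and 28 to 41 against 1 relative. Members on chromosome 1 numbered 7, but 14 at 0.8, 2 at 1.5 and 15 to 17 against 1 relative. These shifts follow from the settings themselves. Over all 8 alternatives 60 to 63 mitosis genes were below, with medians of -0.70 to -0.63, and the MHC class II median was 0.27 to 0.94, lowest without a filter. Of 1008 further counts and values 897 stayed about the same, 111 moved and 0 were scored as reversed. Only gene differences of at least 1 log2 unit and the larger list medians could be scored as reversed. Smaller differences could change sign: SPRY4, at 4.93, was below the mean of both relatives but above subclone 2 alone (4.86). Leaving out the genes of chromosomes 1 and 4 was chosen after seeing the data. No paired analysis was possible because each subclone has a single array.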
